A study of Mus musculus with 46 samples.

Results

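Mammary tumors that lack p53 were compared with mammary tumors that lack Brca1 and carry 1 copy of p53, by the signals of 334 mouse microRNAs (miRNAs) on 12 of the 46 arrays of the series. The 7 p53-/- tumors came from Balb/C mice, from a transplant model in which a Cre recombinase under the mouse mammary tumor virus (MMTV) promoter removes both floxed copies of p53. The 5 Brca1-/-p53+/- tumors came from mice of mixed 129B6/FVB background, born with 1 functional copy of p53, in which the same MMTV-driven Cre removes both floxed copies of Brca1. All 12 were primary tumors of individual mice, each hybridised to 1 array, and both models carry MMTV-Cre and a p53 defect. Strain, transplantation and the deleted gene changed together between the groups, so their shares in any difference cannot be told apart. In whole tumors fewer cells of a type and less RNA per cell cannot be told apart either. A miRNA was kept where its signal exceeded 3 times the array floor (the 5th percentile of all spots) on at least 4 of the 7 p53-/- arrays or 3 of the 5 Brca1-/-p53+/- arrays, which left 232 of the 334 miRNAs.

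MiRNAs guide the silencing complex to messenger RNAs, mainly through the seed, bases 2 to 8 from the 5′ end, so miRNAs with a common seed have overlapping targets. They are cut from longer transcripts by Drosha and Dicer, and neighbours in the genome often come from a common transcript. p53 is a transcription factor that answers DNA damage, and miR-34a is its best known miRNA target. Brca1 acts in the repair of DNA breaks, and its loss gives breast tumors of basal type in women and mice.

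The following sequences are shown because of calls made after median scaling. Members of the first 3 families share a seed and yet were called in both directions, and 4 of 5 members of the last were called higher. Seeds are in capitals, and the sequences are those of RefSeq for GRCm38.p6, where 165 of the 232 miRNAs were matched by name. The let-7 family, which holds back growth genes such as Ras and Hmga2, was on the array with 9 members.
let-7a: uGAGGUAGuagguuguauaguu
let-7b: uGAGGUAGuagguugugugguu
let-7c: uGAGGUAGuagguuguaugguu
let-7d: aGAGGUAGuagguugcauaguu
let-7e: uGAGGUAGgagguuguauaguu
let-7f: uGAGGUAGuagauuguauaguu
let-7g: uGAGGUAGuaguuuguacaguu
let-7i: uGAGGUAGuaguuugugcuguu
miR-98: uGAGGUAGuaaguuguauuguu

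The miR-15/16 family, which targets cyclins and Bcl2, had 5 members.
miR-15a: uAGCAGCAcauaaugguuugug
miR-15b: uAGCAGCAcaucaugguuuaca
miR-16: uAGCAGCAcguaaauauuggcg
miR-195: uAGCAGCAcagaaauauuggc
miR-497: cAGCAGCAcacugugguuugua

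The miR-17 seed belongs to oncogenic clusters that promote passage into S phase, and 6 miRNAs carried it.
miR-17-5p: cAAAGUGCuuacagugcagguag
miR-20a: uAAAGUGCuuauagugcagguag
miR-20b: cAAAGUGCucauagugcagguag
miR-93: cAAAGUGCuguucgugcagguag
miR-106a: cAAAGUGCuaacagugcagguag
miR-106b: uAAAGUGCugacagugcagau

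The miR-200 family keeps epithelial cells epithelial by repressing Zeb1 and Zeb2, and it is split over a pair of seeds that differ at 1 base.
miR-200b: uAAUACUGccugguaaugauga
miR-200c: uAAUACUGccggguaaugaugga
miR-429: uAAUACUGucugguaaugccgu
miR-141: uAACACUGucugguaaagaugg
miR-200a: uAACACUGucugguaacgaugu

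The arrays of the models differed before any miRNA was compared. In the p53-/- group the floor lay between 61.4 and 113.7 array units and the median spot between 94.9 and 202.7, so the median spot was only 1.31 to 1.78 times the floor. In the Brca1-/-p53+/- group the median was 3.99 to 9.33 times the floor. Between 91 and 111 miRNAs exceeded 3 times the floor on the p53-/- arrays, against 168 to 274 on the Brca1-/-p53+/- arrays. The Brca1-/-p53+/- arrays also stood apart from each other. Replicates 1, 2 and 3 had floors of 26.1, 20.5 and 35.5, and the 4 repeat spots of a miRNA scattered with a median SD of 1.23, 0.893 and 0.761 on the log2 scale, while replicates 4 and 5 had floors of 146.7 and 100.4, medians of 906.6 and 700.1 and spot SDs of 0.376 and 0.235. On the p53-/- arrays that SD was 0.319 to 0.513. Over the 334 miRNAs the arrays correlated at 0.807 to 0.95 within p53-/-, 0.604 to 0.908 within Brca1-/-p53+/- and 0.514 to 0.721 between them (Pearson, median-scaled log2 values, which share probes and are given as a description). Each main value is therefore given with all 5 Brca1-/-p53+/- arrays. Some folds or calls are also given with replicates 4 and 5 alone or with replicates 1 to 3 alone.

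**Figure D1:**
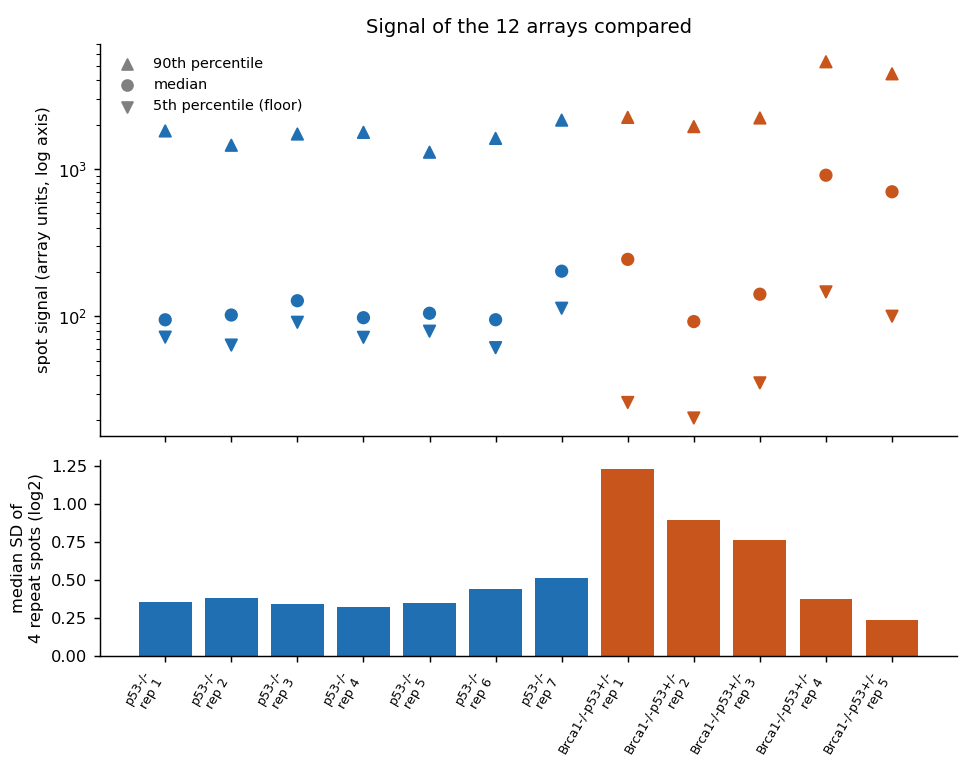
Upper panel, the 5th percentile, median and 90th percentile of all spot signals on each of the 12 arrays in array units on a log axis; lower panel, the median SD of the 4 repeat spots of a miRNA in log2 units; blue is p53-/- (7 arrays) and orange Brca1-/-p53+/- (5 arrays). The median lies close above the floor on every p53-/- array, while Brca1-/-p53+/- replicates 4 and 5 have the 2 highest medians (906.6 and 700.1) and replicates 1 to 3 the 3 highest SDs.

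After each array was scaled to its own median, 59 of the 232 kept miRNAs were higher and 27 lower in p53-/- tumors (limma, adjusted p under 0.05). Over all 334 miRNAs 43.4% were called higher and 8.08% lower. Without scaling the same test gave 6 higher and 57 lower among the 232, with 1.8% and 17.1% called over all miRNAs. Median scaling adds 1.35 to every log2 fold, and it also changes the standard errors (SE), so the calls do not differ by this constant alone. For miR-214 the SE was 0.25 scaled and 0.53 unscaled, and for miR-29c 0.75 and 0.57. All folds below are p53-/- over Brca1-/-p53+/-, with the median-scaled value first. Over all 12 arrays, a log2 fold given alone is median-scaled unless named otherwise, and its unscaled value is 1.35 lower. The median fold over the 334 miRNAs was 0.82 scaled and -0.53 unscaled. The shift in fold was the same for every miRNA, but the calls changed most among miRNAs without signal. Of the 102 miRNAs above the floor on neither side, 86 were called higher after median scaling and 0 without it, where 1 was higher at an unadjusted p under 0.05. The unscaled result turned on the arrays used, with 2 miRNAs higher and 228 lower of 334 against replicates 4 and 5 alone and 70 higher and 51 lower against replicates 1 to 3 alone.

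**Figure D2:**
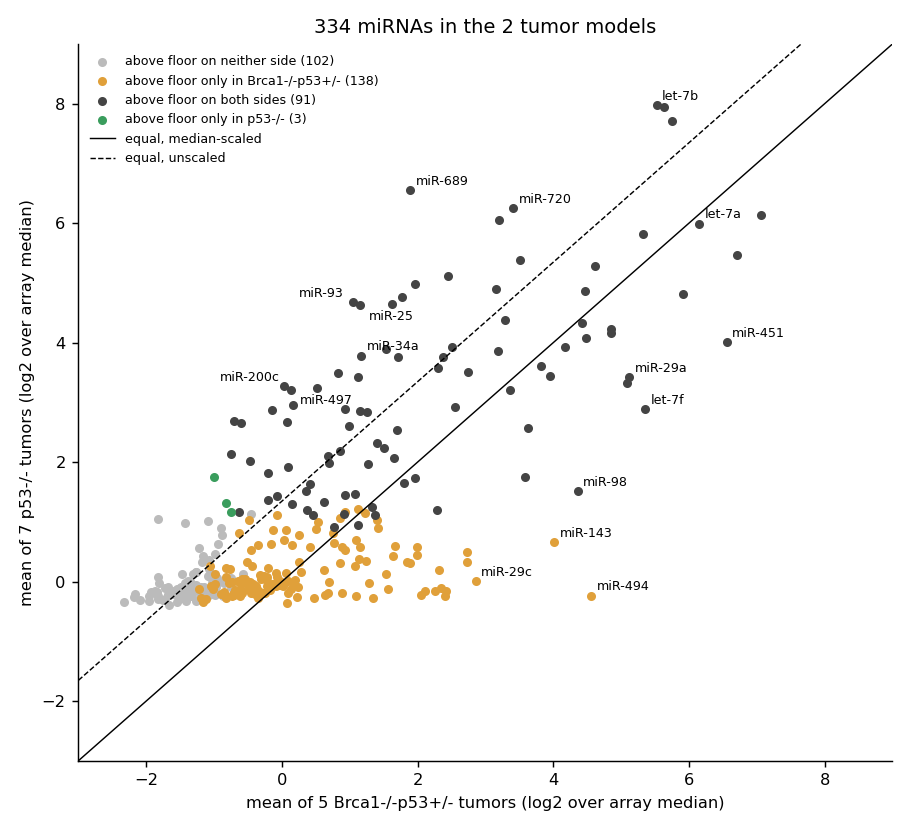
Each point is 1 of the 334 miRNAs, by its mean in 5 Brca1-/-p53+/- tumors (horizontal) and in 7 p53-/- tumors (vertical), both in log2 units over the array median; colors give the side on which it was above the floor, the solid line marks equal median-scaled values and the broken line equal unscaled values, 1.35 higher. The 138 miRNAs above the floor only in Brca1-/-p53+/- form a band near 0 on the vertical axis, miR-494 is farthest to its right, and miR-689, miR-93 and miR-25 lie above both lines.

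The 232 miRNAs fell into 91 above the floor on both sides, 138 only in Brca1-/-p53+/- tumors and 3 only in p53-/- tumors. A miRNA that passed on 1 side alone had to differ in part by that choice, so the counts of the last 2 classes are descriptions. Near the limit of the filter, 9 miRNAs were above the floor on exactly 4 p53-/- arrays and 17 on 3, while 52 were above it on exactly 3 Brca1-/-p53+/- arrays and 56 on 2. Among the 91, 43 were called higher and 6 lower with scaling, and 6 higher and 20 lower without. Of these, 6 were called higher in both fits and 6 lower in both fits. Values of all p53-/- arrays lay above all Brca1-/-p53+/- arrays for 22 of the 91 after scaling and for 1 without it (27.5% and 0.299% of all miRNAs). They lay below for 1 and 10 (3.89% and 9.88%).

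**Figure D3:**
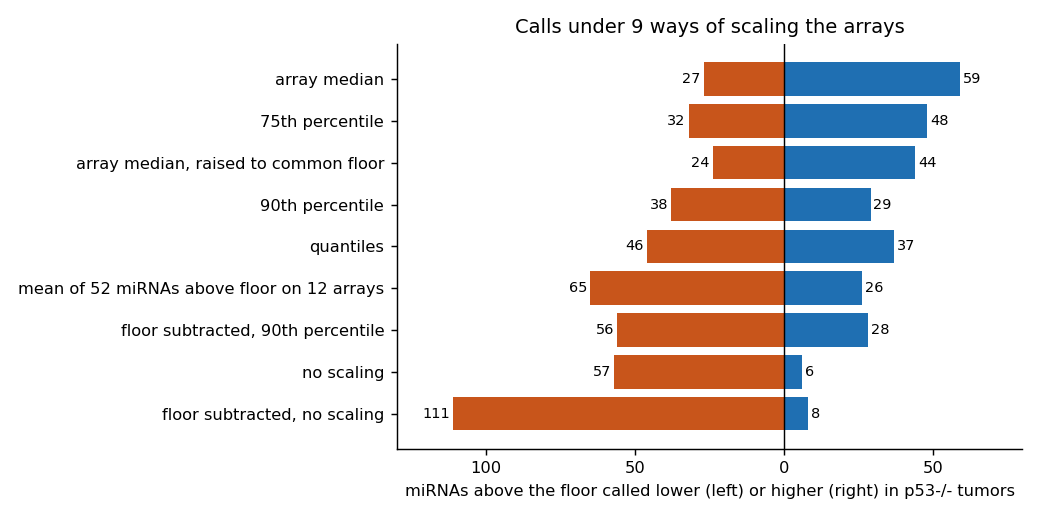
Number of the 232 miRNAs above the floor called lower (left, orange) or higher (right, blue) in p53-/- tumors by limma under 9 ways of scaling the arrays. The counts run from 59 higher and 27 lower with the array median to 8 higher and 111 lower where the floor was taken off and nothing was scaled.

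Across 9 ways of scaling or background treatment, 27 miRNAs were called in the same direction each time, 6 higher and 21 lower. The 6 were miR-689, miR-93, miR-25, miR-200c, miR-497 and miR-720, all above the floor on both sides. Of the 21, 3 were above the floor on both sides (miR-98, miR-451 and let-7f) and 18 only in Brca1-/-p53+/- tumors. All 6 higher and 15 of the 21 lower miRNAs were also called in that direction against replicates 4 and 5 alone and against replicates 1 to 3 alone. Of these 15, 13 were above the floor only in Brca1-/-p53+/- tumors. The subsets are parts of the same arrays, so these counts are descriptions and no independent evidence. The 6 lower miRNAs not called against replicates 4 and 5 alone were let-7f, miR-142-5p, miR-195, miR-22, miR-29c and miR-30a-5p (adjusted p = 0.0541 to 0.732).

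miR-93 and miR-25 lie together with miR-106b within an intron of the replication gene Mcm7 (chr5:138165332-138165807, minus strand, GRCm38.p6), and both rose in p53-/- tumors. The unscaled signal of miR-93 ran from 1206 through a median of 2554 to 11856 array units in p53-/- tumors, and was 429, 279.7, 316, 1135 and 1784 in Brca1-/-p53+/- replicates 1 to 5. Of these, replicate 5 alone reached the p53-/- range. Its log2 fold was 3.63 ± 0.41 (SE, adjusted p = 4.82e-05 by limma) and 2.28 unscaled (adjusted p = 0.015). miR-25, which has another seed and targets the cell cycle inhibitor p57, ran from 958 (median 2326) to 12264 and gave 334, 349, 348, 1357 and 1936 in the Brca1-/-p53+/- replicates. The fold was 3.48 ± 0.45 (adjusted p = 6.93e-05) and 2.13 unscaled (adjusted p = 0.0257). Against replicates 4 and 5 alone the scaled folds were 3.84 for miR-93 and 3.60 for miR-25. The third member, miR-106b, did not pass the test (log2 fold 0.08, adjusted p = 0.876) and was above the floor on 1 of 7 p53-/- arrays.

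miR-689 showed the largest fold of the 6. Its p53-/- signals ran from 5133 (median 10064) to 36285, and the Brca1-/-p53+/- replicates gave 624, 119, 1897, 3806 and 2617. Among the 91 miRNAs it alone had every p53-/- array above every Brca1-/-p53+/- array without scaling, with a log2 fold of 4.67 ± 0.60 (adjusted p = 6.93e-05) and 3.32 unscaled (adjusted p = 0.00296). miR-720, an array entry now read as a fragment of a transfer RNA, ran from 5455 (median 8389) to 13115 against 2990, 1406, 5486, 1867 and 6355, with folds of 2.84 and 1.49 (adjusted p = 0.000956 and 0.0377). The unscaled ranges overlapped.

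miR-200c ran from 544 (median 1464) to 1722 in p53-/- tumors and gave 298, 178, 94.0, 776 and 596 in Brca1-/-p53+/- tumors. The fold was 3.24 ± 0.40 (adjusted p = 5.49e-05) and 1.89 unscaled (adjusted p = 0.0257), with replicates 4 and 5 inside the lower part of the p53-/- range. miR-497 ran from 381 (median 1072) to 2983 against 281, 299, 124, 386 and 783, so that only replicates 4 and 5 reached the p53-/- range. Its fold was 3.08 ± 0.54 (adjusted p = 0.000487) and 1.73 unscaled, close to the threshold there (adjusted p = 0.0497). For each of these 6 miRNAs the exact two-sided permutation of the 12 group labels gave p = 0.00126 after scaling, the smallest that 792 splits allow. They were picked by their calls in the same data, so this is no independent evidence. After scaling 27.5% of all miRNAs had every p53-/- array above every Brca1-/-p53+/- array. Unscaled, miR-689 alone of the 6 had groups that did not overlap.

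**Figure D4:**
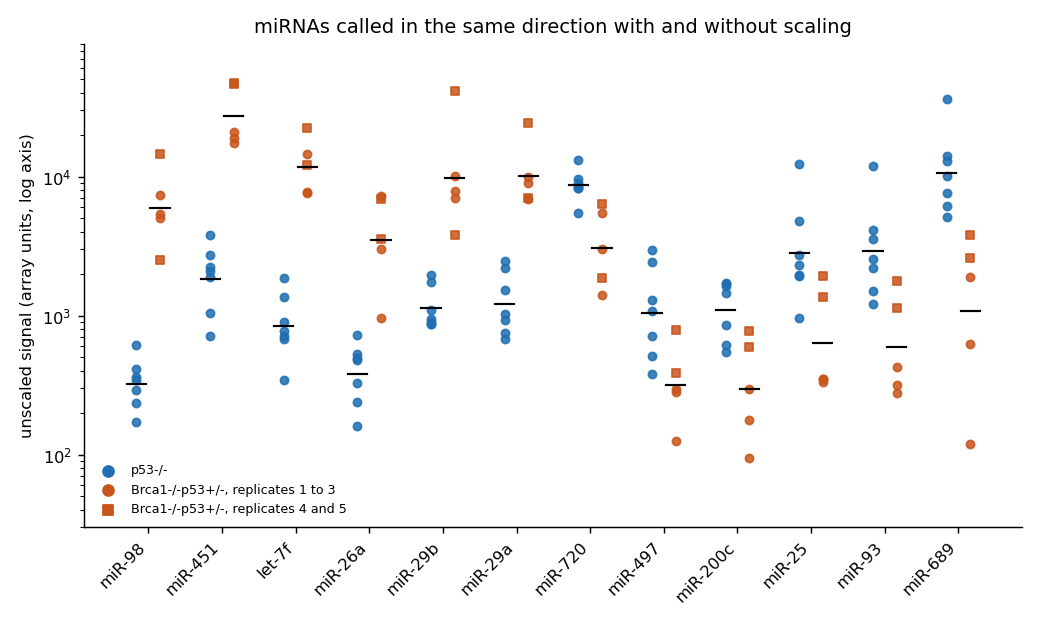
Unscaled signal of each array in array units on a log axis for the 6 miRNAs called lower (left) and the 6 called higher (right) in p53-/- tumors both with and without scaling, for 7 p53-/- arrays (blue) and 5 Brca1-/-p53+/- arrays (orange, squares for replicates 4 and 5); bars are geometric means. The groups do not overlap for the 6 on the left and for miR-689, and overlap for the other 5.

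The 6 miRNAs lower in both fits and above the floor on both sides came from 4 families. let-7f and miR-98 carry the let-7 seed. let-7f ran from 345 (median 778) to 1880 in p53-/- tumors and gave 7742, 14493, 7568, 22214 and 12125 in the Brca1-/-p53+/- replicates, with no overlap before scaling. Its log2 fold was -2.46 ± 0.54 (adjusted p = 0.00188) and -3.81 unscaled (adjusted p = 1.74e-05). miR-98 ran from 171 (median 346) to 619 against 5395, 5033, 7414, 14524 and 2517, with folds of -2.85 ± 0.57 (adjusted p = 0.00103) and -4.20 (adjusted p = 1.10e-05). Against replicates 4 and 5 alone the scaled fold was -1.48 for let-7f (adjusted p = 0.0541) and -1.41 for miR-98 (adjusted p = 0.0498), about the threshold in each case.

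miR-451, a miRNA of red cells whose maturation needs Ago2 in place of Dicer, ran from 712 (median 2108) to 3823 in p53-/- tumors. The Brca1-/-p53+/- arrays gave 17430, 20803, 18952, 46927 and 46710, the highest of them in replicates 4 and 5. The groups did not overlap with or without scaling, and the fold was -2.55 ± 0.47 (adjusted p = 0.000601) and -3.89 unscaled (adjusted p = 1.74e-05). miR-26a, known as a brake on Ezh2, ran from 161 (median 479) to 730.4 against 2990, 7240, 958, 3569 and 6901, with folds of -1.84 ± 0.61 (adjusted p = 0.021) and -3.19 (adjusted p = 0.00037). Against replicates 4 and 5 alone its scaled fold was -0.89 and the call was lost (adjusted p = 0.199).

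All 3 members of the miR-29 family, which represses collagens and the DNA methyltransferases, were lower with and without scaling. Over all miRNAs 8.08% and 17.1% were called lower. miR-29a ran from 675 (median 1019) to 2477 in p53-/- tumors and gave 6847, 9975, 8993, 24225 and 6972 in Brca1-/-p53+/- tumors. miR-29b ran from 869 (median 953) to 1944 against 7920, 7070, 10142, 41207 and 3823. Replicate 4 was the highest array for both, and no p53-/- array reached the Brca1-/-p53+/- range before scaling. The folds were -1.70 ± 0.59 for miR-29a (adjusted p = 0.0267; -3.05 unscaled, adjusted p = 0.000214) and -1.76 ± 0.60 for miR-29b (adjusted p = 0.0242; -3.11 unscaled, adjusted p = 0.000365). These 2 calls were fragile with scaling. That of miR-29a was lost without p53-/- replicate 7 or Brca1-/-p53+/- replicate 2 or 3 (adjusted p = 0.0513 to 0.0716), that of miR-29b without Brca1-/-p53+/- replicate 2, 3 or 4 (adjusted p = 0.0559 to 0.0657), and both against replicates 4 and 5 alone (folds -0.61 and -0.66). The signal of miR-29c exceeded 3 times the floor on 0 of 7 p53-/- arrays and on all 5 Brca1-/-p53+/- arrays.

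Of the 138 miRNAs above the floor only in Brca1-/-p53+/- tumors, 94 were above it on none of the p53-/- arrays, and 21 of the 138 were called lower in p53-/- tumors in both fits. Where no p53-/- array rose above 3 times its floor, the fold is a bound, computed with each p53-/- signal raised to that limit. The adjusted p beside a bound, here and below, is from limma on the signals as measured and does not test the bound. Each of the 138 passed the filter only through the Brca1-/-p53+/- arrays, so its adjusted p, here and below, is given as a description. miR-494, from the imprinted Dlk1-Dio3 region of chromosome 12, led this class.
miR-494: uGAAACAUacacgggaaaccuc
Its signals were 70.1 to 152 (median 95.0) in p53-/- tumors, at the level of the floor, and 5337, 3020, 11159, 9842 and 8434 in the Brca1-/-p53+/- replicates. It was at least 11.6-fold higher in Brca1-/-p53+/- tumors after scaling and at least 29.4-fold unscaled (adjusted p = 4.92e-06 and 2.13e-08), and it was called against replicates 4 and 5 alone (adjusted p = 3.76e-06) and against replicates 1 to 3 alone (adjusted p = 3.02e-06).

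miR-143, a miRNA of fibroblasts and smooth muscle, was above the floor on 1 of 7 p53-/- arrays, with signals of 97.8 to 327 (median 184) against 3611, 11088, 2488, 9376 and 2370. The log2 fold was -3.35 ± 0.62 (adjusted p = 0.000672) and -4.69 unscaled (adjusted p = 5.05e-06). Against replicates 4 and 5 alone the scaled fold of miR-143 was -1.90, and against replicates 1 to 3 alone -4.31. Its genomic neighbour and usual partner miR-145 was bright in both models, at 1808 to 3017 (median 1939) in p53-/- and 6693, 13982, 4759, 13386 and 6664 in Brca1-/-p53+/- tumors. It did not pass the test after scaling (log2 fold -0.69, adjusted p = 0.274) and did so without (fold -2.03, adjusted p = 0.00247). The scaled fold of miR-145 changed sign between the subsets. It was 0.59 against replicates 4 and 5 alone (limma adjusted p = 0.0589) and -1.54 against replicates 1 to 3 alone (adjusted p = 0.0108). The other leading miRNAs of the class had no p53-/- array above the limit. miR-29c was at least 3.54-fold higher in Brca1-/-p53+/- tumors after scaling (9-fold unscaled, adjusted p = 0.00613 and 1.87e-05), with signals of 2459, 2665, 2904, 5878 and 361 and replicate 5 far below the rest. miR-365 was at least 2.63-fold higher (6.68-fold unscaled, adjusted p = 0.000997 and 1.74e-05). miR-185 was at least 2.6-fold higher (6.6-fold unscaled, adjusted p = 0.000114 and 1.83e-05) and miR-546 at least 2.48-fold (6.31-fold unscaled, adjusted p = 0.000171 and 1.22e-05).

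The 3 miRNAs above the floor only in p53-/- tumors, miR-127, miR-128b and miR-196b, were called higher after scaling (log2 folds 2.75, 2.13 and 1.91) and not without it (adjusted p = 0.182, 0.32 and 0.71). miR-127, another Dlk1-Dio3 miRNA, ran from 165 (median 308) to 973 in p53-/- tumors against 56.6, 47.2, 95.0, 719.7 and 342. miR-128b, a miRNA of neurons, ran from 216 (median 253) to 615 against 139, 108, 81.8, 436 and 220.4. miR-196b, from a Hox cluster, was brightest in Brca1-/-p53+/- replicates 4 and 5 (61.0, 37.2, 53.3, 1055 and 1166 in replicates 1 to 5, against 106 to 449.5 in p53-/- tumors).

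In the let-7 family, 3 of 9 members were higher, 2 lower and 4 not called after scaling, with a median fold of -0.16. Over all miRNAs 43.4% were called higher and 8.08% lower. Unscaled, 5 were lower and none higher (1 higher at an unadjusted p under 0.05), against 17.1% and 1.8% over all miRNAs. let-7a, the best known member, was bright in both models, at 5414 to 8461 (median 7734) in p53-/- and 13995, 13056, 16607, 34868 and 34441 in Brca1-/-p53+/- tumors, and its scaled fold was -0.16 (adjusted p = 0.732). Unscaled it was called lower (fold -1.50, adjusted p = 0.0236), with no overlap. Counting bases from 1 at the 5′ end of let-7a, let-7f differs from it by G12A alone and let-7c by A19G alone. let-7c ran from 18028 (median 28140) to 37892 in p53-/- tumors against 7141, 8786, 9920, 23265 and 42642, and its fold was 2.30 ± 0.37 (adjusted p = 0.000297), opposite to that of let-7f. let-7b, with A17G and A19G, had a fold of 2.45 ± 0.34 (adjusted p = 0.000125) and let-7i of 1.88 ± 0.36 (adjusted p = 0.000901). Without scaling the folds of let-7b, let-7c and let-7i were 1.11, 0.96 and 0.53, none past the threshold. The spread within the family, 5.30 log2 units from miR-98 to let-7b, is the same under any scaling by a constant per array. How well the probes separate members that differ by 1 base was not tested.

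The miR-15/16 family also split. miR-497 rose and its neighbour miR-195 (chr11:70234730-70235082, plus strand) fell. miR-195 was at 86.2 to 349.7 (median 122) in p53-/- tumors, with 1 of 7 arrays above 3 times the floor, and at 1262, 781, 402, 2541 and 1209 in Brca1-/-p53+/- tumors, for a fold of -1.51 ± 0.44 (adjusted p = 0.0108) and -2.86 unscaled (adjusted p = 0.000509). Against replicates 4 and 5 alone the scaled call was lost (fold -0.80, adjusted p = 0.223). It was the only lower call of the family after scaling, while 3 of 5 members were lower unscaled, against 17.1% of all miRNAs. miR-15b was higher after scaling (1.59 ± 0.27, adjusted p = 0.000467) and not unscaled (0.24, adjusted p = 0.86). miR-16, which shares a transcript with miR-15b and another with miR-15a, gave -1.04 (adjusted p = 0.0582), and without Brca1-/-p53+/- replicate 5 it was called lower (adjusted p = 0.0263). Unscaled its fold was -2.39 (adjusted p = 0.00165), with no overlap.

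After scaling, among the 6 miRNAs with the miR-17 seed, miR-93 alone was called higher, miR-106a and miR-20b were called lower, and miR-17-5p, miR-20a and miR-106b were not called (folds 0.93, -0.26 and 0.08). miR-106a and miR-20b, neighbours on the X chromosome, were above 3 times the floor on none of the p53-/- arrays. miR-106a was at least 1.19-fold higher in Brca1-/-p53+/- tumors (unscaled at least 3.02-fold, adjusted p = 0.00193 and 0.00108). Of miR-20b only the call can be given (adjusted p = 0.00583 and 0.00658), since its signals in Brca1-/-p53+/- tumors, 438, 153, 284, 1492 and 750.4, gave no bound above 1 after scaling. Over the wider list of the miR-17-92 cluster and its paralogs, 4 of the 12 miRNAs on the array were higher and 2 lower after scaling. Over all miRNAs these shares were 43.4% and 8.08%. The median fold of the list was 0.35. miR-92, with the seed of miR-25, was among the 4 (fold 2.66 ± 0.32, adjusted p = 5.49e-05, and 1.32 unscaled, adjusted p = 0.0915).

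Of the miR-200 family, 4 of 5 members were higher after scaling and 1 of 5 without it, against 43.4% and 1.8% of all miRNAs. The median folds of the family were 3.02 and 1.67. miR-429 ran from 321 (median 569) to 2101 in p53-/- tumors against 133, 33.4, 56.4, 1535 and 455, a fold of 3.39 ± 0.47 (adjusted p = 0.000114) and 2.04 unscaled (adjusted p = 0.0836). miR-200a (3.02 ± 0.63, adjusted p = 0.00143) and miR-200b (1.43 ± 0.41, adjusted p = 0.0106) lie with it at chr4:156053916-156055706 on the minus strand. miR-141, the neighbour of miR-200c at chr6:124717917-124718346, was above the floor on no p53-/- array and did not pass the test (fold -0.33, adjusted p = 0.714). Brca1-/-p53+/- replicate 3 was low for the whole family, at 95.3 for miR-200a, 96.2 for miR-200b and 94.0 for miR-200c.

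**Figure D5:**
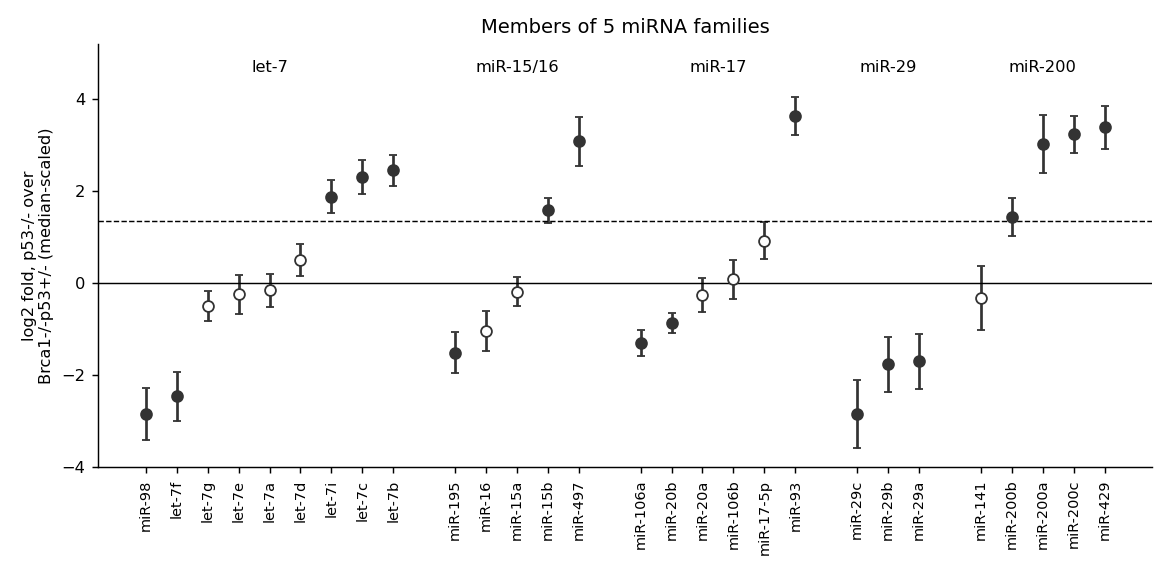
Median-scaled log2 folds, p53-/- over Brca1-/-p53+/-, with SE from limma (n = 7 and 5 arrays) for the members of 5 families; filled points passed the threshold, the solid line marks equal scaled and the broken line equal unscaled signals. Members of the let-7, miR-15/16 and miR-17 families lie on both sides of 0, all 3 miR-29 members below it, and 4 of 5 miR-200 members above it.

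Of the 27 seeds shared by several of the 232 miRNAs, 3 held members called in both directions after scaling, those of let-7, miR-15/16 and miR-17. For miR-15/16 and miR-17 the lower calls were of miRNAs above the floor only in Brca1-/-p53+/- tumors, so their split is a description. A further 13 seeds held scaled calls only upward and 5 only downward. Seeds were not counted unscaled, where 6 of the 232 miRNAs were called higher and 57 lower. In the miR-30 family 3 of 5 members were lower, against 8.08% of all miRNAs, and miR-30c and miR-30e were not called (folds -1.09 and -0.26). The median fold was -1.21, and -2.56 unscaled, and miR-30c alone was above the floor on both sides. The call of miR-30b (fold -1.21, adjusted p = 0.0441) stood in 4 of the 12 fits that left out an array. miR-30d was at least 3.22-fold higher in Brca1-/-p53+/- tumors (unscaled at least 8.2-fold, adjusted p = 0.000576) and miR-30a-5p had a fold of -2.13 ± 0.51 (adjusted p = 0.00361), with 2 of 7 p53-/- arrays above the limit. The pair miR-221 and miR-222, which target the cell cycle inhibitor p27, rose together. miR-222 ran from 1372 (median 3097) to 16832 against 442, 335, 1014, 8135 and 1501, with folds of 3.01 ± 0.61 (adjusted p = 0.00112) and 1.67 unscaled (adjusted p = 0.129). miR-221 had folds of 2.86 ± 0.68 (adjusted p = 0.00333) and 1.52 (adjusted p = 0.231). miR-181b was higher after scaling (2.73 ± 0.47, adjusted p = 0.000449) and miR-181c was not called (0.64, adjusted p = 0.217). The 5 members of the miR-23, miR-24 and miR-27 list gave no call after scaling, none at an unadjusted p under 0.05, and 2 lower calls without, with a median fold of -0.09. Unscaled, 17.1% of all miRNAs were called lower.

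Base composition moved with the folds. Over the 73 of 91 miRNAs above the floor on both sides that had a sequence, the scaled fold correlated with GC content at r = 0.377 (Spearman 0.402, across miRNAs of the same arrays, a description). Of the 9 with at most 40% GC, 1 was called higher and 4 lower, with a median fold of -1.09. Of the 38 between 40 and 50%, 18 were higher and 2 lower (median 1.11), and of the 26 above 50%, 14 were higher and 0 lower (median 1.47). let-7f and miR-98 have 31.8% GC, let-7a 36.4%, let-7c 40.9% and let-7b 45.5%. miR-546 at 62.5% and miR-214 at 59.1%, both lower in p53-/- tumors, are not among the 73, since they were above the floor only in Brca1-/-p53+/- tumors. The correlation was 0.336 against replicates 4 and 5 alone and 0.381 against replicates 1 to 3 alone. Its part in the folds was not tested.

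The miRNAs that p53 is known to induce were read next, since 1 model lacks p53 and the other started with 1 copy. Of 8 on the array, 3 were higher, none lower and 5 not called, where 43.4% of all miRNAs were called higher, with a median fold of 0.78 beside 0.82 over all miRNAs. Unscaled, 0 were higher (0 at an unadjusted p under 0.05) and 1 was lower. miR-34a, the direct p53 target, was higher in the tumors without p53. Its signals ran from 1213 (median 1490) to 2244 in p53-/- tumors and were 265, 558, 181, 1307 and 3363 in the Brca1-/-p53+/- replicates, where replicate 5 exceeded every p53-/- array. The fold was 2.61 ± 0.47 (adjusted p = 0.00055) after scaling, with no overlap, and 1.26 ± 0.62 (adjusted p = 0.17) unscaled. miR-34b and miR-34c, the members expressed from another locus, were above 3 times the floor on 0 and 1 of 7 p53-/- arrays and on 4 and 5 of 5 Brca1-/-p53+/- arrays, and were not called (adjusted p = 0.289 and 0.717). miR-107, from an intron of a pantothenate kinase gene, was higher after scaling (1.75 ± 0.35, adjusted p = 0.00112; 0.40 unscaled, adjusted p = 0.645). The third call was miR-215, which was above the floor on neither side, as was miR-192. miR-194 was not called (adjusted p = 0.401).

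Of the 4 miRNAs whose processing by Drosha BRCA1 is known to aid in human cells (let-7a, miR-16, miR-145 and miR-34a), miR-34a alone was called after scaling, and without scaling the other 3 were called lower in p53-/- tumors. Of the 3 whose processing p53 is known to aid in human cells (miR-16, miR-143 and miR-145), miR-143 was called lower after scaling and all 3 without it. Over all miRNAs 8.08% were called lower after scaling and 17.1% without it. Of 4 miRNAs tied to BRCA1, 2 were called higher after scaling, against 43.4% of all miRNAs, and 0 without it. These were miR-182, which was above the floor on neither side (fold 1.79), and miR-155. miR-155, which Brca1 is known to repress, was above 3 times the floor on 0 of 7 p53-/- arrays and on 3 of 5 Brca1-/-p53+/- arrays. Its signals were 80.7 to 158 (median 115) and 84.0, 47.4, 88.9, 934 and 409, and the scaled call upward (fold 0.76, adjusted p = 0.0364) turned to a fold of -0.59 without scaling (adjusted p = 0.624). miR-146 and miR-146b, which target BRCA1, were not called after scaling (folds 0.65 and -0.31, adjusted p = 0.144 and 0.423).

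Of the 12 MYC-repressed miRNAs, 6 were lower and 2 higher after scaling (median fold -1.46) and 9 lower and none higher without it (median -2.81), where 8.08% and 17.1% of all miRNAs were called lower. The 6 were miR-195, miR-22, miR-26a and the 3 miR-29 miRNAs, of which miR-195, miR-22 and miR-29c passed the filter only through the Brca1-/-p53+/- arrays, so that the count is a description. miR-22 was at least 1.81-fold higher in Brca1-/-p53+/- tumors (unscaled at least 4.6-fold, adjusted p = 0.00393). The 2 higher were miR-34a and miR-150. miR-26b was not called after scaling (-1.41, adjusted p = 0.0698) and was called lower unscaled (-2.76, adjusted p = 0.0017).

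Markers of other cells were called in both directions after scaling, where 43.4% of all miRNAs were called higher and 8.08% lower. The sums of signals here and in the next paragraph are unscaled, and unscaled the median log2 fold over all 334 miRNAs was -0.53. For fibroblasts and smooth muscle, 2 of 5 on the array were lower (miR-143 and miR-214) and 2 higher (miR-199a and miR-199b), while the summed unscaled signal of the list was 3853 to 9256 in p53-/- and 9260 to 32195 in Brca1-/-p53+/- tumors. miR-214 and miR-199a share a transcript. miR-214 was at least 1.45-fold higher in Brca1-/-p53+/- tumors after scaling (unscaled at least 3.68-fold, adjusted p = 0.000191), and miR-199a gave 1.38 ± 0.42 (adjusted p = 0.0144) and 0.04 unscaled (adjusted p = 0.971). The red cell list summed to 1002 to 4260 in p53-/- and 17939 to 50764 in Brca1-/-p53+/- tumors, with miR-451 as its only call of 3. Its neighbour miR-144 had a fold of 0.49 (adjusted p = 0.337) and was above 3 times the floor on no p53-/- array and on 3 Brca1-/-p53+/- arrays. For leukocytes 2 of 4 were higher (miR-150 and miR-155), miR-142-5p was lower and miR-223 was not called. Unscaled, 0 were higher and 1 was lower. The sums were 914 to 4634 in p53-/- and 1362 to 12378 in Brca1-/-p53+/- tumors. The call of miR-142-5p (adjusted p = 0.0396) stood in only 2 of the 12 fits that left out an array.

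Muscle and fat markers differed widely among Brca1-/-p53+/- tumors. Of the 3 muscle miRNAs on the array, miR-1 and miR-206 were above 3 times the floor on 0 of 7 p53-/- arrays and miR-133b on 5 of 7. miR-133b ran from 172 (median 289) to 349 in p53-/- and was 307, 1321, 269.9, 2175 and 834 in Brca1-/-p53+/- tumors (fold -0.08, adjusted p = 0.895). miR-1, a miRNA of striated muscle, was 76.5 to 151 in p53-/- tumors and 1145, 6207, 998, 3237 and 109.5 in Brca1-/-p53+/- tumors. Its scaled fold was -2.28 (adjusted p = 0.0676), and the adjusted p fell to 0.000613 without replicate 5. Unscaled it was called lower (-3.63, adjusted p = 0.00112). The skeletal muscle list summed to 350.1 to 679.3 and 1365 to 7616. The fat list had 1 call down (miR-365) and 1 up (miR-378, above the floor on neither side), with sums of 268.2 to 896.5 and 1436 to 10600. Of the basal epithelial miRNAs miR-205, miR-203 and miR-31, none was called or reached an unadjusted p under 0.05. miR-205 ran from 433 (median 1403) to 13748 in p53-/- and was 12021, 1131, 183, 1949 and 2429 in Brca1-/-p53+/- tumors, with a fold of 1.42 ± 0.85 (adjusted p = 0.169), and without replicate 1 it was called higher (adjusted p = 0.0252). miR-31 ran from 105 (median 2824) to 10594 and was 1271, 116, 1061, 6015 and 825 (fold 2.04, adjusted p = 0.0852), and it was called higher without p53-/- replicate 2 (adjusted p = 0.0132). The endothelial miR-126-5p was higher at an unadjusted p under 0.05 but not called (0.97, adjusted p = 0.0773), and it was called without Brca1-/-p53+/- replicate 2 (adjusted p = 0.00875). The part of other cells in the differences between the models was not tested.

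Several lists with little signal were called upward after scaling and not without. In the Dlk1-Dio3 region 19 of 40 miRNAs were higher, against 43.4% of all miRNAs, and miR-494 was lower. Only 3 of the 19 were above the floor, and 0 were higher unscaled (0 at an unadjusted p under 0.05). All 6 miRNAs of the Sfmbt2 intron cluster were called higher, 2 of them above the floor. miR-669c ran from 392 (median 923) to 1646 in p53-/- tumors against 174, 47.8, 87.8, 779.7 and 2170, a fold of 3.02 ± 0.46 (adjusted p = 0.000195) and 1.67 unscaled (adjusted p = 0.144). For miRNAs that serve as tissue controls, 7 of 11 in the embryonic stem cell clusters, 3 of 5 in the X-linked testis cluster, 6 of 9 neural and 5 of 6 of liver, heart and pancreas were called higher after scaling, against 43.4% of all miRNAs, and none without it, where 1 of these was higher at an unadjusted p under 0.05. The 21 miRNAs that the study assigned to p53-/- tumors were all called higher, a list chosen on these same samples and thus no independent evidence, with 7 of 21 above the floor and none called unscaled (2 at an unadjusted p under 0.05). Of these miR-423 had 297 to 948 (median 513) in p53-/- against 78.9, 47.6, 96.1, 705 and 581 in Brca1-/-p53+/- tumors, a fold of 2.89 ± 0.29 (adjusted p = 1.43e-05) and 1.54 unscaled (adjusted p = 0.115).

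Finally, 4 miRNAs above the floor on both sides were called higher after scaling with a fold of the opposite sign without it. miR-150, a miRNA of lymphocytes, had folds of 1.34 and -0.01, miR-199b 1.28 and -0.07, miR-351 1.21 and -0.14, and miR-801, an array entry that matches a small nuclear RNA, 1.17 and -0.18. Their scaled adjusted p were 0.0431, 0.0278, 0.0415 and 0.0338. These calls were lost in 7 (miR-150), 4 (miR-199b), 7 (miR-351) and 8 (miR-801) of the 12 fits that left out an array, where the adjusted p of the lost calls ran from 0.0534 to 0.118. miR-150 ran from 210.1 (median 446) to 1911 in p53-/- and was 315, 322, 106, 1637 and 2183 in Brca1-/-p53+/- tumors, so that its unscaled groups overlapped throughout. Of the 3 miRNAs that the study names as basal in both species, miR-135b (0.01, adjusted p = 0.972) and miR-505 (0.47, adjusted p = 0.224) did not differ past the threshold, and miR-155 is given above.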

How the data were processed

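Total RNA from 46 samples, of 8 mammary tumor models and of normal gland, was labelled with Hy3, and the authors used a custom Agilent miRNA array. The deposited raw table gives for each spot the processed intensity, in array units, as the authors extracted it, after they removed control, non-mouse and minus-strand probes, with 1336 spots for 334 miRNAs. The deposited series matrix holds log2 values that the authors scaled to the array median, and it equals the centred raw table plus a constant of 8.0032 to 8.00326. A further 1 value column of the raw table had no label and was not used, nor were detection calls. Arrays have no depth, and precision is limited by how many there were.

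Groups were taken from the sample labels (7 p53-/- and 5 Brca1-/-p53+/- arrays, each of another mouse). The log2 intensity of the 4 spots of each miRNA was averaged and the array median subtracted. The groups were compared with limma 3.58.1 in R 4.3.3 (lmFit and eBayes, two-sided), adjusted by Benjamini-Hochberg over all 334 miRNAs, at a threshold of 0.05, and with an exact permutation of the 12 labels (Python 3.11.15). The limma fit was also checked on simulated arrays that took their means and SDs from these data. Folds are log2, p53-/- over Brca1-/-p53+/-.

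Named miRNAs were, by rule, up to 8 per direction with the largest fold among those above the floor on both sides and called alike with and without scaling, up to 6 above it on each side alone, up to 4 of opposite sign, up to 2 per list and the pathway members. Members of seed groups and genomic neighbours outside the rule were chosen after their values were seen. The 32 lists came from general knowledge or the study. Members and lists were chosen with earlier results of these data known. Older miRNA names were matched to current ones by hand, and neighbours in the genome lie within 10 kb.

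Alternatives were other percentiles, quantiles, a reference of 52 miRNAs above the floor on all arrays, no scaling, floor subtraction with 50 added, a common floor, spot medians, all 46 arrays, array weights, the floor as a covariate, the methods' t-test, filters at 2 and 5 times the floor, the replicate number as a block and each array left out. Chosen after seeing the data were removal of a position trend and the use of Brca1-/-p53+/- replicates 4 and 5 or 1 to 3 alone, also without scaling.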

Additional observations from a re-analysis of the deposited data

Results flagged for a closer look

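In all, 9 values stood apart from the rest of their group by Dixon's test at its 95% limit, among 162 groups tested, where chance would give about 1 in 20. Values are log2 over the array median unless named otherwise. In Brca1-/-p53+/- tumors replicate 5 was apart for miR-142-5p at -1.57 (the others 1.60 to 1.88), for miR-801 at 2.16 (the others -0.303 to 0.12) and for miR-669c at 1.63 (the others -0.951 to -0.217). In p53-/- tumors replicate 7 was apart for miR-185 at -0.831 (the others -0.334 to -0.0518), for miR-128a at 0.369 (the others 1.14 to 1.47), for miR-26b at 1.66 (the others 0.18 to 0.664) and for the array median at 203.0 array units (the others 94.9 to 128). Replicate 4 was apart for miR-143 at -0.00342 (the others 0.616 to 0.941), and replicate 6 for miR-195 at 1.88 (the others -0.186 to 0.649).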

How the results depend on the processing

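The counts depended on the scaling. Among the 232 miRNAs above the floor, 59 were higher and 27 lower with the array median. The counts were 6 and 57 without scaling, 26 and 65 with the 52 reference miRNAs, 37 and 46 with quantiles, 8 and 111 with the floor subtracted and unscaled, 28 and 56 with floor subtraction before the 90th percentile, 29 (higher) with the 90th percentile, 36 (higher) with array weights and 16 (lower) with the methods' t-test. With a filter at 2 times the floor 111 were higher. Over all 334 miRNAs, where 145 were higher and 27 lower, the counts were 6 and 57 unscaled, 34 and 65 with the reference, 45 and 46 with quantiles, 8 and 114 with the floor subtracted and unscaled, 31 and 56 with it subtracted and the 90th percentile, 52 (higher) with the 90th percentile, 63 (higher) with a common floor and 16 (lower) with the t-test. The methods' t-test called 34 of the 334 at the unadjusted threshold that the methods name and 118 after Benjamini-Hochberg adjustment. Against Brca1-/-p53+/- replicates 1 to 3 alone 44 were lower. Unscaled, replicates 4 and 5 alone gave 2 higher and 172 lower above the floor (2 and 228 of all), and replicates 1 to 3 alone 32 and 51 (70 and 51 of all). Calls were higher in 84.3% with the median and 9.52% without scaling, and the median fold of all miRNAs moved by -1.35. Leaving out 1 array at a time gave 52 to 70 higher and 22 to 39 lower above the floor, and 134 to 164 and 22 to 39 over all. The replicate number as a block gave 50 higher and 26 lower (117 and 26 over all), although the arrays share only a number: deviations from the group means correlated at 0.0853 on average for equal numbers (-0.0607 to 0.358) and -0.0144 for others, and 2 of 5 Brca1-/-p53+/- arrays correlated best with their own number. The cause of these shifts was not tested beyond what the scaling itself adds.

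Of the 76 miRNAs the rule named, these changed sign. Unscaled folds were -0.01 for miR-150, -0.59 for miR-155, -0.069 for miR-199b, -0.10 for miR-215, -0.41 for miR-291b-5p, -0.24 for miR-295, -0.14 for miR-351 and -0.18 for miR-801. With the floor subtracted and unscaled they were -1.86 for miR-135b, -1.24 for miR-144, -0.18 for miR-150, -1.22 for miR-155, -0.007 for miR-182, -1.29 for miR-194, -0.12 for miR-199b, -0.70 for miR-215, -1.01 for miR-291b-5p, -0.71 for miR-295, -1.31 for miR-34b, -1.46 for miR-34c, -0.41 for miR-351, -0.43 for miR-801 and -0.082 for miR-96. After floor subtraction and scaling to the 90th percentile they were -1.01 for miR-135b, -0.37 for miR-155 and -0.16 for miR-291b-5p. With the reference miRNAs they were -0.97 for miR-135b, -0.22 for miR-155, -0.034 for miR-291b-5p and -0.81 for miR-34c, and with quantiles -0.011 for miR-155. Removing the position trend changed the call of 3 of the 76. Signal over background limits the p53-/- arrays most, where the median spot was 1.31 to 1.78 times the floor.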
